A study of Mus musculus with 6 samples.

Results

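The potassium channel genes of murine oviductal epithelial (MOE) cells were taken by symbol, as every gene whose name begins with Kcn, a letter from a to v, an optional further letter and a number. By this rule 94 of the 22800 gene symbols in the expression tables were members. They comprised 30 voltage-gated channel genes, 10 genes of silent voltage-gated subunits, 15 inward rectifier genes, 14 two-pore domain genes, 8 genes of channels opened by calcium or sodium, 16 genes of accessory subunits and the long noncoding RNA Kcnq1ot1, which shares the name stem and encodes no channel. RNA sequencing was carried out on MOELOW cells at passages 8, 9 and 10 and on MOEHIGH cells at passages 90, 103 and 113, with 1 library for each passage. Both groups came from 1 line, started from oviductal cells pooled from several 8-week-old females of the outbred CD1 strain, and the labels name no engineered allele and no treatment for either. MOEHIGH cells were made by passaging MOELOW cells on plastic over a long time, to mimic cellular aging. The study reported soft agar colonies and subcutaneous tumors in nude mice from MOEHIGH cells, and neither from MOELOW cells. It sequenced the groups to find pathways with a possible part in this tumor formation. Because all libraries share 1 line, p-values here speak of variation from passage to passage and not of variation between animals.

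Potassium channels let potassium ions leave the cell along their gradient and so hold the membrane voltage negative. Voltage-gated channels open on depolarization, inward rectifiers and two-pore domain channels carry much of the current at rest, and calcium-activated channels open when cytosolic calcium rises. In secretory epithelia, that of the oviduct among them, potassium exit supplies the driving force for chloride and fluid secretion into the lumen, while the sodium pump and the sodium-potassium-chloride cotransporter bring potassium back in. Accessory subunits such as the Kcnab, Kcne, Kcnip and Kcnmb proteins form no pore and tune the channels they bind.

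The upstream sequences of the genes with the largest rise and the largest fall among the tested members, Kcnn4 and Kcnj16, are shown so that the regions before their starts can be compared. Each is the stretch of 250 bases that ends at the base before a RefSeq transcript start (GRCm38.p6), read 5′ to 3′ on the gene's strand. Capitals mark matches, on either strand, to 4 motifs: AP-1 (TGANTCA), the GC box (GGGCGG), the CCAAT box (CCAAT) and the E-box (CACGTG). For Kcnn4 the stretch lies at chr7:24370013-24370262 on the plus strand, before its single start in the table, and for Kcnj16 at chr11:110967783-110968032 on the plus strand, before the first of 4 starts.
Kcnn4: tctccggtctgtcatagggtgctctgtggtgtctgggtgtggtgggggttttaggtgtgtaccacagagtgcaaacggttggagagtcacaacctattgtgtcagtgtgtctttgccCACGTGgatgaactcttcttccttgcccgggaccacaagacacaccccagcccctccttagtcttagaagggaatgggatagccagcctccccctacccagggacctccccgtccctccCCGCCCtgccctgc
Kcnj16: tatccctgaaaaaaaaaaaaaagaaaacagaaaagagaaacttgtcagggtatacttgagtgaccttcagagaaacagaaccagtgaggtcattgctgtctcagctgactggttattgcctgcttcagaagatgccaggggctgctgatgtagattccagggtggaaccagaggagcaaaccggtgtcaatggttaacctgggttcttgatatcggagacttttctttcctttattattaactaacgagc
The Kcnn4 stretch held 58.8% G and C and 6 CG dinucleotides, against medians of 52.4% and 6 over 32851 such stretches of all genes in the table. It held 1 E-box, whose first base lay 133 bases before the start, and 1 GC box 14 bases before it, in letters that do not overlap. The Kcnj16 stretch shown was poorer in G and C, at 42.8% with 3 CG dinucleotides, and held none of the 4 motifs, so no letter is in capitals. The stretches before starts 2 to 4 of Kcnj16 held 44.8% to 51.2% G and C and 1 to 7 CG dinucleotides. Start 4 had a GC box and a CCAAT box, with first bases 46 and 60 bases before it. Of all stretches, 6.02% held the E-box, 32.7% the GC box, 33.8% the CCAAT box and 6.75% the AP-1 motif. Across the 21 starts of the 8 tested members in the table, an E-box was present at 3, a GC box at 8, a CCAAT box at 5 and an AP-1 match at 1, the latter 126 bases before a start of Kcnk2. These matches describe letters, and no binding was measured.

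The libraries had summed FPKM (fragments scaled by transcript length and by the size of the library) of 625095 to 684209 in MOELOW and 597486 to 770709 in MOEHIGH. The number of fragments behind them is unknown. The labelled epithelial identity was checked by marker lists. In the list of 9 oviductal epithelial markers the transcription factor gene Pax8 and the keratin genes Krt18 and Krt19 were abundant in both groups, but the surface adhesion gene Epcam and the E-cadherin gene Cdh1 stayed below 0.1 FPKM on average, and of the 7 markers tested 2 rose, 1 fell and 4 had no call. The smooth muscle list had a summed level of 7822 to 11170 FPKM in MOELOW against 71.5 to 108.6 FPKM in MOEHIGH, and 6 of 7 tested were lower. Most of that sum came from Acta2 (4395 ± 650.1 FPKM in MOELOW) and Tagln (4224 ± 937.9 FPKM), which other contractile cells also express. Mean levels of Cnn1, Des and Lmod1 fell from 391.4, 54.7 and 11.2 FPKM in MOELOW to 1.23, 0.204 and 0.0294 FPKM in MOEHIGH. Smtn fell from 116.1 to 76.45 FPKM, and each of these genes was called lower. The smooth muscle myosin gene Myh11 lay at 0.0910 to 0.591 FPKM in MOELOW, and Mylk, at 0.306 to 3.20 FPKM there, had no call. Fibroblast genes summed to 590.6 to 977.4 and 22.4 to 32.7 FPKM, with 4 of 5 lower. The remaining lists were low. Pericyte genes summed to 1.98 to 4.82 and 0.00792 to 0.0627 FPKM (1 tested, lower), and endothelial genes to 2.1 to 4.54 and 0 to 0.00998 FPKM (1 tested, lower, with Cdh5 and Vwf listed at 0 in all 6 libraries). Leukocyte genes summed to 1.44 to 2.25 and 1.35 to 1.72 FPKM (1 tested, not passed, with Cd3e, Emr1 and Itgam at 0), ciliated cell genes to 3.38 to 5.69 and 3.96 to 4.51 FPKM (3 tested, 1 higher and 1 lower), and neuronal and glial genes to 8.05 to 10.3 and 14.9 to 15.5 FPKM (2 tested, 1 higher and 1 lower, with Rbfox3 and Gfap at 0). In bulk RNA, fewer cells of a type and less RNA per cell cannot be told apart, and the part of these cell types in the changes of potassium channel genes was not tested.

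Most members were silent or nearly so. Of the 94, 27 were listed at 0 in all 6 libraries, 32 stayed below 0.1 FPKM, 19 peaked between 0.1 and 0.5 FPKM, 7 peaked between 0.5 and 1 FPKM, and 9 reached 1 FPKM in a library. Voltage-gated channel genes, the largest class, made up 10 of the 27 silent members, and none of the 30 reached 1 FPKM. Kcnj16 alone reached 1 FPKM in every MOELOW library, whereas Kcnn4, Kcnab1, Kcnip1 and Kcnk10 did so in every MOEHIGH library. Kcnk2 and Kcnk5 did so at passages 8 and 9 but not at 10, so that without passage 10 the count for MOELOW is 3. The plot of highest values by class shows how few genes of each class left the lowest bands. In MOELOW 44 to 48 members were above 0 per library, and in MOEHIGH 28 to 33. Among genes above 0 but below 0.1 FPKM, the commonest log2 ratio to passage 8 was -0.45 to -0.35 in the MOEHIGH libraries. At passages 9 and 10 it was -0.17 and -0.15. The MOEHIGH peaks held only 10 to 20 genes, too few to give the value of 1 fragment. The part of depth in the counts of members above 0 was not tested.

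**Figure D1:**
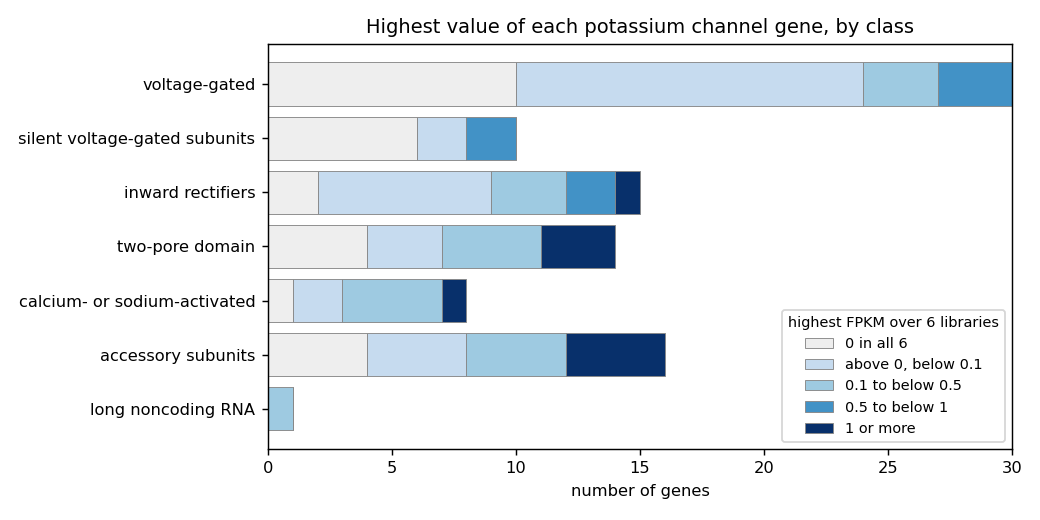
Number of the 94 potassium channel genes in each class (horizontal axis), divided by the highest FPKM that each gene reached over the 6 libraries (shading). Only inward rectifiers, two-pore domain channels, calcium- or sodium-activated channels and accessory subunits have a gene at 1 FPKM or more, and these are 9 genes in all.

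The summed level of the members was higher in MOEHIGH, and Kcnn4 was the gene that set it apart. The 94 genes summed to 14.4, 12.7 and 13.3 FPKM at passages 8, 9 and 10, and to 37.2, 33.6 and 33.1 FPKM at passages 90, 103 and 113. Kcnn4 made up 57.0%, 55.5% and 52.3% of the sum in the MOEHIGH libraries, and at most 0.344% in MOELOW. Without Kcnn4 the sums were 14.4, 12.7 and 13.3 FPKM in MOELOW and 15.99, 14.9 and 15.8 FPKM in MOEHIGH, still without overlap of the groups but much closer. These close sums joined classes that moved in opposite directions. Accessory subunits, which form no pore, summed to 2.05 to 2.29 FPKM in MOELOW and 9.71 to 10.5 FPKM in MOEHIGH. The summed levels of voltage-gated genes and of inward rectifiers were lower in MOEHIGH, and those of two-pore domain genes overlapped, as given below. The highest member in each MOELOW library was Kcnj16, at 22.7% to 30.9% of the sum. The stacked bars of the summed level show this exchange of the leading gene.

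**Figure D2:**
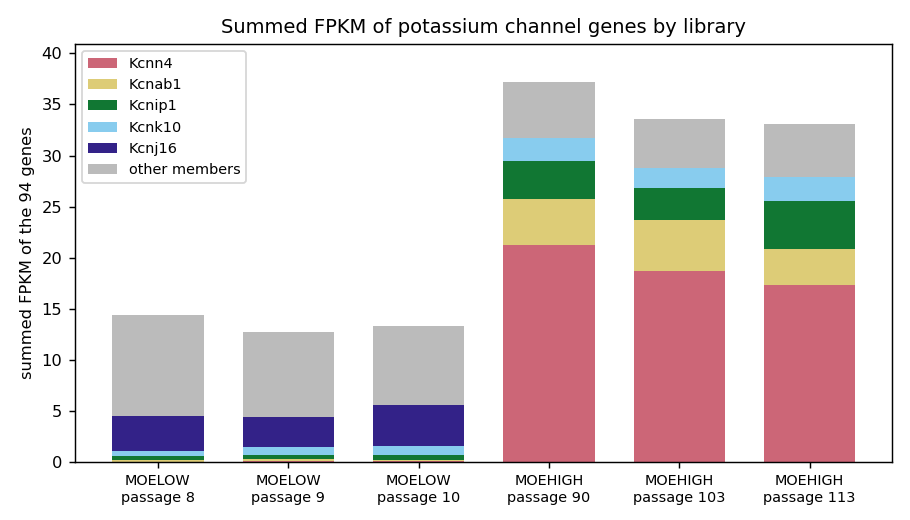
Summed FPKM of the 94 potassium channel genes (vertical axis) in each library (horizontal axis), stacked by gene, with all genes beyond the 5 named in grey. Kcnn4 takes 52.3% to 57.0% of the bar in the MOEHIGH libraries and is not visible in MOELOW, where Kcnj16 is the largest named segment.

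Of the members, 9 had a mean of at least 0.5 FPKM over the 6 libraries and entered the test, which used limma on log2(FPKM + 1) over 11621 genes at an adjusted p of 0.05. In MOEHIGH, 5 of the 9 were higher, 3 were lower and 1 had no call, where 24.3% of all tested genes were higher and 32.1% were lower. With quantile normalization the split was 6 higher and 1 lower. Their median log2 fold change was 0.79, and that of all tested genes was -0.05. Kcnn4, Kcnab1, Kcnip1 and Kcnab2 passed the minimum only through MOEHIGH, and Kcnj16 and Kcnk2 only through MOELOW, so genes of this level that passed in this way had to differ, and the counts and the median are given as a description. Kcnab2, with a mean of 0.517 FPKM, lay just inside the minimum and Kcnj14, at 0.381 FPKM, just outside. All fold changes on the log2(FPKM + 1) scale understate the change of genes at these low levels.

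**Figure D3:**
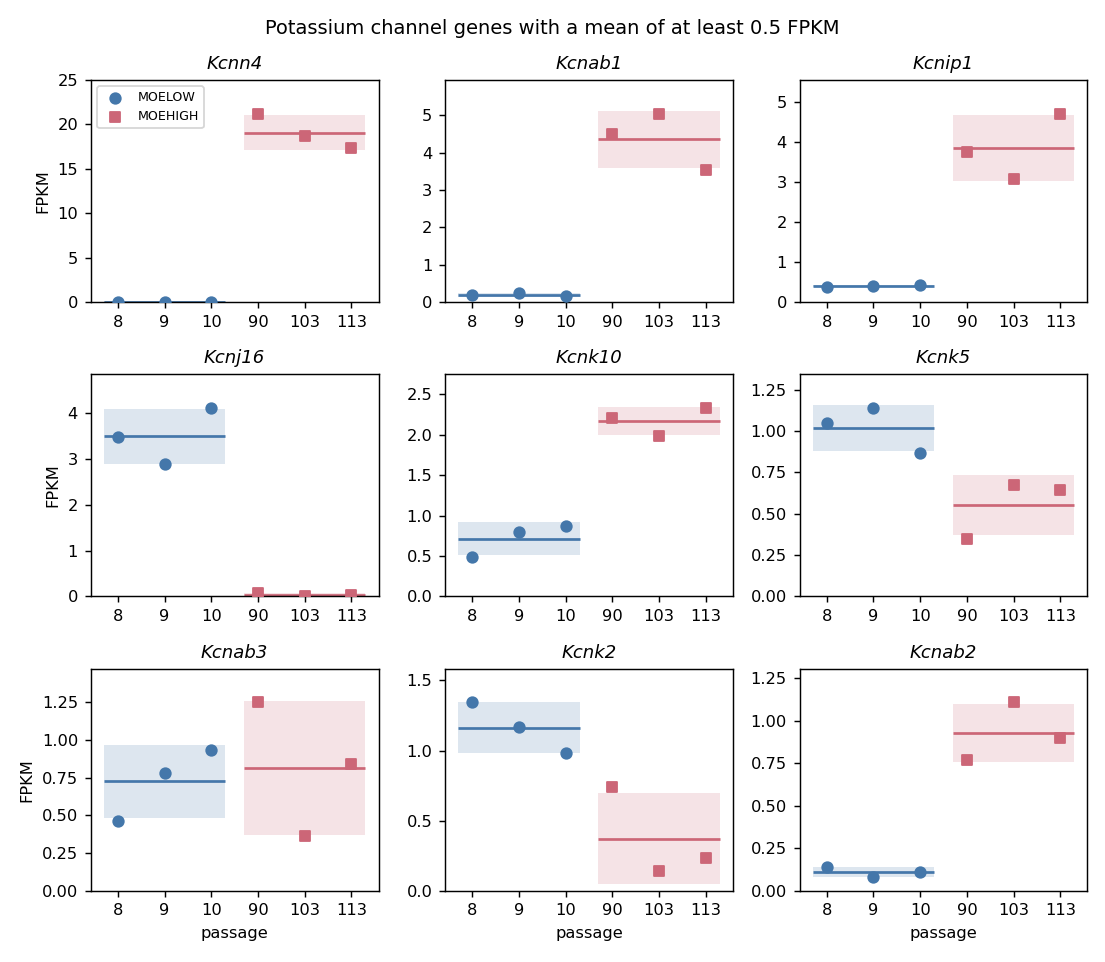
FPKM (vertical axes, each with its own scale from 0) of the 9 tested potassium channel genes at each passage (horizontal axes), with MOELOW as blue circles and MOEHIGH as red squares. Lines are group means and bands are mean ± SD (n = 3 passages), and the bands of the groups overlap for Kcnab3 alone.

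Kcnn4 encodes the intermediate-conductance channel that opens when calcium binds the calmodulin attached to it, and that carries potassium out of secretory epithelial cells and lymphocytes. It was listed at 0 at passage 8 and lay at 0.0438 and 0.0433 FPKM at passages 9 and 10. At passages 90, 103 and 113 it lay at 21.2, 18.7 and 17.3 FPKM, or 19.1 ± 1.98 FPKM (SD, n = 3). The gene was thus near 0 in the 3 MOELOW libraries and the highest member in each MOEHIGH library. Its log2 fold change was 4.28 (standard error, SE, 0.11; limma adjusted p = 1.60e-07), which ranked 36 by size among the 2826 genes called higher, and it stayed between 4.21 and 4.34 with any library left out. The gene (ENSMUSG00000054342) occupies 24370263 to 24386690 of chromosome 7 in mm10, on the plus strand, and overlaps no other annotated gene.

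The other genes of this class stayed below 0.3 FPKM in every library. Kcnn1, a small-conductance calcium-activated channel gene, lay at 0.208, 0.173 and 0.103 FPKM in MOELOW and at 0.175, 0.181 and 0.139 FPKM in MOEHIGH, with overlapping groups. Its relative Kcnn3 lay at 0.208, 0.161 and 0.283 FPKM in MOELOW, and in MOEHIGH it was at 0.00591 FPKM at passage 103 and listed at 0 at passages 90 and 113. Kcnn2 was at 0 throughout. Kcnma1, the large-conductance calcium-activated channel that is abundant in smooth muscle, peaked at 0.0448 FPKM at passage 8 and was at 0 in MOEHIGH, and its smooth muscle subunit Kcnmb1 peaked at 0.0401 FPKM. The sodium-activated channel gene Kcnt2 fell in the test without a minimum level described below, and Kcnu1, a related pH-sensitive channel known from sperm, lay at 0.0563, 0.144 and 0.110 FPKM in MOEHIGH and at 0 in MOELOW.

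Among the accessory subunits, 3 of the 4 tested genes rose. Kcnab1 encodes a cytoplasmic beta subunit of the Kcna voltage-gated channels. It lay at 0.181, 0.236 and 0.148 FPKM in MOELOW and at 4.49, 5.05 and 3.53 FPKM in MOEHIGH. Every MOEHIGH value was far above every MOELOW value, and the group means were 0.188 ± 0.0441 and 4.35 ± 0.768 FPKM (SD, n = 3), a ratio of 23.1. The log2 fold change was 2.16 (SE 0.13, limma adjusted p = 7.00e-06). Kcnab1 spans 65109384 to 65378223 of chromosome 3, plus strand, and shares exonic positions with the antisense gene A330015K06Rik.

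Kcnab2, a further beta subunit gene of the same family, was lower in level and moved the same way. Its values were 0.139, 0.0790 and 0.110 FPKM in MOELOW and 0.769, 1.11 and 0.897 FPKM in MOEHIGH, without overlap. The means were 0.109 ± 0.0297 and 0.924 ± 0.170 FPKM (SD, n = 3), a ratio of 8.47, with a log2 fold change of 0.79 (SE 0.11, limma adjusted p = 0.00052). It fell below the minimum level, and out of the test, when any MOEHIGH library was left out. Kcnab2 lies on the minus strand of chromosome 4 from 152390742 to 152477871, with exonic overlap with Gm16334, a noncoding transcript of the same strand.

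Kcnab3, the remaining gene of the family, did not pass the test. It lay at 0.459, 0.778 and 0.936 FPKM in MOELOW and at 1.25, 0.360 and 0.838 FPKM in MOEHIGH. The highest and the lowest value were both in MOEHIGH, and the groups overlapped. The log2 fold change was 0.05 (SE 0.20, limma adjusted p = 0.83), and it turned to -0.06 without passage 8 and to -0.12 without passage 90, whereas quantile normalization gave 0.62 (adjusted p = 0.021 from limma). The gene, at 69326258 to 69333042 of chromosome 11 on the plus strand, has exonic overlap with its antisense gene Kcnab3os. The channel genes that Kcnab proteins bind were at the floor in both groups. Kcna3 reached 0.0952 FPKM at passage 8 and was otherwise listed at 0, Kcna4 peaked at 0.0524 FPKM, Kcna1, Kcna2 and Kcna7 stayed at or below 0.0296 FPKM, and Kcna5, Kcna6 and Kcna10 were at 0 in all 6 libraries.

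Kcnip1 encodes a calcium-binding protein that attaches to the Kcnd voltage-gated channels and brings them to the cell surface. Its FPKM were 0.386, 0.410 and 0.434 in MOELOW and 3.76, 3.07 and 4.71 in MOEHIGH. The MOELOW values were close together and all below those of MOEHIGH. The means were 0.410 ± 0.0241 and 3.84 ± 0.826 FPKM (SD, n = 3), a ratio of 9.38, and the log2 fold change was 1.77 (SE 0.14, limma adjusted p = 2.80e-05). Kcnip1 occupies 33629339 to 33993152 of chromosome 11, minus strand, and Kcnmb1 lies within it on the opposite strand without exonic overlap. Of the channel genes it serves, Kcnd1 was at 0.601, 0.390 and 0.393 FPKM in MOELOW and was listed at 0 in MOEHIGH except for 0.0812 FPKM at passage 103. Kcnd2 and Kcnd3 stayed at or below 0.0114 FPKM. Its relatives Kcnip3 and Kcnip4 overlapped between the groups, at 0.0554 to 0.333 FPKM and 0 to 0.222 FPKM over the 6 libraries, and Kcnip2 was at 0. Kcne and the other Kcnmb genes stayed below 0.2 FPKM in every library.

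Two-pore domain channels carry background potassium current, and the 3 tested genes of this class moved in both directions. Kcnk10 and Kcnk2 encode the closely related TREK channels, which respond to membrane stretch and lipids. Kcnk10 lay at 0.481, 0.797 and 0.870 FPKM in MOELOW and at 2.20, 1.99 and 2.33 FPKM in MOEHIGH, with no overlap. Its means were 0.716 ± 0.207 and 2.17 ± 0.173 FPKM (SD, n = 3), a ratio of 3.04, and its log2 fold change was 0.89 (SE 0.13, limma adjusted p = 0.00059). Kcnk2 went the other way, at 1.34, 1.17 and 0.984 FPKM in MOELOW and 0.743, 0.138 and 0.237 FPKM in MOEHIGH. Passage 90 was the closest of the MOEHIGH libraries to the MOELOW range, and there was no overlap. The means of Kcnk2 were 1.16 ± 0.180 and 0.373 ± 0.325 FPKM, 3.13-fold lower in MOEHIGH, with a log2 fold change of -0.68 (SE 0.17, limma adjusted p = 0.011). With quantile normalization, which moved the median over all tested genes from -0.05 to 0.10, the value for Kcnk2 was -0.08 (adjusted p = 0.68 from limma). Kcnk10 lies on the minus strand of chromosome 12 (98429437 to 98578310), and Kcnk2 on the minus strand of chromosome 1 (189207930 to 189402273) with exonic overlap with the antisense gene A430027H14Rik.

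Kcnk5 encodes TASK-2, a channel opened by alkaline pH and known from the kidney and other epithelia. It lay at 1.05, 1.14 and 0.865 FPKM in MOELOW and at 0.344, 0.676 and 0.642 FPKM in MOEHIGH. The lowest MOELOW value, at passage 10, was above the highest MOEHIGH value, at passage 103. The means were 1.02 ± 0.139 and 0.554 ± 0.182 FPKM (SD, n = 3), 1.83-fold lower in MOEHIGH (log2 fold change -0.38, SE 0.13, limma adjusted p = 0.033). The call was lost when single libraries were left out: adjusted p from limma was 0.072 without passage 8, 0.10 without passage 9 and 0.10 without passage 90, and the log2 fold change was 0.18 with quantile normalization. Kcnk5 occupies 20140057 to 20181809 of chromosome 14 on the minus strand. As the rise of Kcnk10 and the falls of Kcnk2 and Kcnk5 ran against each other, the summed FPKM of the 14 two-pore domain genes was 3.13 to 3.51 in MOELOW and 3.04 to 3.45 in MOEHIGH, overlapping between the groups.

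Inward rectifiers fell as a summed level, from 4.29 to 4.88 FPKM per library in MOELOW to 0.667 to 0.988 FPKM in MOEHIGH, and Kcnj16 made up most of the former. Kcnj16 encodes Kir5.1, a subunit that forms working channels in pairs with other inward rectifiers, chiefly the product of Kcnj10. Its values were 3.47, 2.89 and 4.11 FPKM in MOELOW and 0.0681, 0.00936 and 0.0320 FPKM in MOEHIGH. It was thus the leading member at low passage and near 0 in each high passage library. The means were 3.49 ± 0.610 and 0.0365 ± 0.0296 FPKM (SD, n = 3), and the log2 fold change was -2.11 (SE 0.13, limma adjusted p = 6.40e-06), which ranked 519 by size among the 3734 genes called lower. With any library left out it stayed between -2.21 and -2.01. Kcnj10, the usual partner, did not exceed 0.0105 FPKM.

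Kcnj16 (ENSMUSG00000051497) spans 110968033 to 111027968 of chromosome 11 on the plus strand. The next gene, 38.2 kb away with no annotated gene between them, is Kcnj2, the gene of the classical strong inward rectifier Kir2.1. Kcnj2 lay at 0.284, 0.239 and 0.269 FPKM in MOELOW and was listed at 0 in all MOEHIGH libraries, so that both neighbours were at or near 0 at high passage. Kcnj2 was below the minimum level of the test. Of the remaining class, Kcnj14, another strong inward rectifier gene, was higher in every MOEHIGH library (0.705, 0.552 and 0.403 FPKM) than in any MOELOW library (0.233, 0.207 and 0.184 FPKM). Kcnj4 was at 0.494, 0.548 and 0.0945 FPKM in MOELOW and 0.0668, 0 and 0.0280 FPKM in MOEHIGH, and its value at passage 10 was close to that of passage 90.

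**Figure D4:**
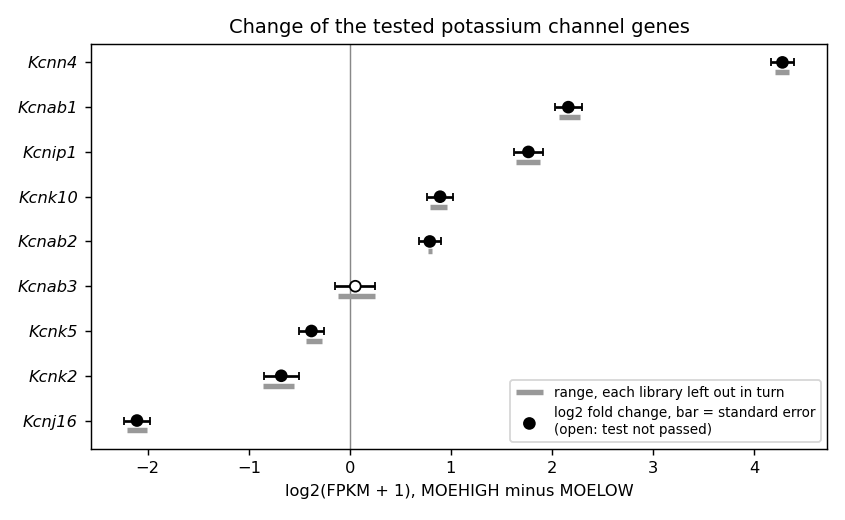
Log2 fold change on the log2(FPKM + 1) scale, MOEHIGH minus MOELOW (horizontal axis), of the 9 tested potassium channel genes, with bars for the standard error and grey lines for the range with each library left out in turn. Filled points passed the test, from 4.28 for Kcnn4 to -2.11 for Kcnj16, and the open point is Kcnab3, whose range spans 0.

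No voltage-gated channel gene and no silent subunit gene entered the test, yet some of them were present at low level in 1 group. Kcnq5, which carries a slow current that steadies the membrane voltage, lay at 0.533, 0.532 and 0.687 FPKM in MOELOW and was listed at 0 in all MOEHIGH libraries. Kcnf1, a silent subunit that needs partners of another family, was at 0.583, 0.682 and 0.327 FPKM in MOELOW and at 0, 0 and 0.00896 FPKM in MOEHIGH. Both were higher at each low passage than at any high passage. Kcnv2, a silent subunit known from photoreceptors, showed the opposite pattern, with 0.378, 0.609 and 0.497 FPKM in MOEHIGH against 0, 0.0101 and 0 FPKM in MOELOW. The summed level of the 30 voltage-gated genes was 1.74 to 2.59 FPKM in MOELOW and 0.122 to 0.273 FPKM in MOEHIGH.

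**Figure D5:**
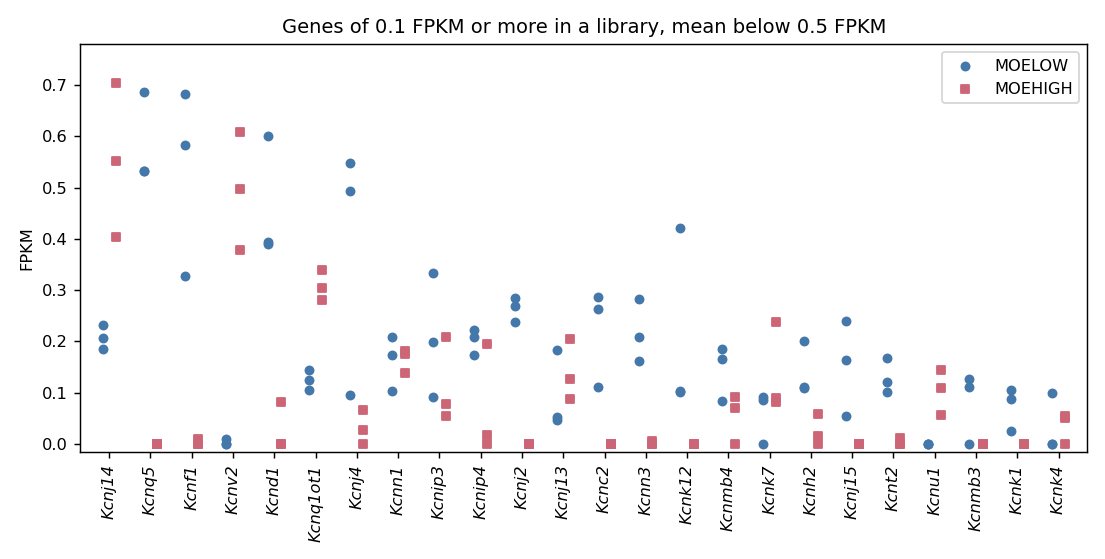
FPKM (vertical axis) in each library of the potassium channel genes reported here that reached 0.1 FPKM in a library but had a mean below 0.5 FPKM (horizontal axis, in order of their mean), with MOELOW as blue circles and MOEHIGH as red squares. Kcnq5, Kcnf1 and Kcnd1 lie above 0.3 FPKM in every MOELOW library and in no MOEHIGH library. Kcnv2 and Kcnj14 do so in every MOEHIGH library and in no MOELOW library, although Kcnj14 is present in both groups.

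When every gene above 0 in a library was tested, 67 of the 94 members entered among 16525 genes. Then 10 members were called higher and 16 lower by limma at an adjusted p of 0.05, and 41 had no call, where 17.6% of all genes were higher and 27.4% were lower, so that the members were called about as often as genes at large. The calls beyond the 9 genes above were Kcnh8, Kcnj14, Kcnq1ot1, Kcnu1 and Kcnv2 among the higher ones. The lower ones included the voltage-gated genes Kcnc2, Kcnd1, Kcnh2 and Kcnq5, the silent subunit gene Kcnf1, the inward rectifier genes Kcnj2, Kcnj4 and Kcnj15, the two-pore domain gene Kcnk1, and the calcium- or sodium-activated channel genes Kcnn3 and Kcnt2. The long noncoding RNA Kcnq1ot1, known for silencing neighbouring genes on the paternal chromosome, lay at 0.124, 0.144 and 0.105 FPKM in MOELOW and 0.340, 0.280 and 0.304 FPKM in MOEHIGH. Its exons overlap those of Kcnq1 on the opposite strand, which stayed at or below 0.0194 FPKM. At these levels a value may rest on few fragments.

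Members present in 1 group and listed at 0 in the other leaned toward MOELOW, as did genes at large (708 against 133 of 16525). Of the 67 members above 0 in a library, 7 were above 0 in all 3 MOELOW libraries and at 0 in all 3 MOEHIGH libraries. These were Kcnc2, Kcnj2, Kcnj15, Kcnk1, Kcnk12, Kcnmb1 and Kcnq5, and 4.28% of the 16525 genes showed this pattern. Kcnh8 and Kcnu1, 2 of the 67 members, had the reverse pattern, which 0.805% of genes showed. Since an exact 0 in these tables can also be a failed estimate, these members are described as listed at 0 and not as absent.

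Exonic overlap with a gene of the other strand leaves the source of the fragments uncertain for Kcnab1, Kcnab3, Kcnk2 and Kcnq1ot1, and likewise for Kcnd3, Kcnip4, Kcnj15, Kcnk1, Kcnma1, Kcnn1, Kcnq1, Kcnq5 and Kcnt2. The libraries were strand-specific, but whether strand was used in the quantification is not given in the sources used here.

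Potassium channels work with pumps, cotransporters, chloride channels and calcium channels, which were described by 5 lists of 172 genes, 165 of them in the tables. Of the 75 tested, 14 were called higher, 38 lower and 23 neither, and 19 were higher and 32 lower with quantile normalization. Over all tested genes 24.3% were higher and 32.1% lower, the shares to set beside these counts and those of each list below. The median log2 fold change of the 75 was -0.41, against -0.05 over all tested genes. Proteins that bind or modify potassium channels (8 tested) were higher in 1 and lower in 4, and higher in 2 without passage 113. The ubiquitin ligase gene Nedd4l rose from 5.20 ± 0.466 to 9.41 ± 0.925 FPKM (SD, n = 3). Calm2 and Calm3, genes for calmodulin, the calcium sensor of Kcnn4, were abundant in both groups. Calm2 fell from 665.8 ± 27.8 to 467 ± 40.9 FPKM and Calm3 from 197.7 ± 1.02 to 126.1 ± 8.18 FPKM. The scaffold gene Akap9 fell from 8.65 ± 0.505 to 4.99 ± 0.430 FPKM, and Nrp1 from 30.3 ± 2.83 to 18.9 ± 2.25 FPKM.

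Anion channel genes moved in both directions, with 8 higher, 8 lower and 5 not passing of 21 tested. The calcium-activated chloride channel gene Ano1 lay at 0.280, 0.465 and 0.788 FPKM in MOELOW and at 42.3, 38.6 and 44.0 FPKM in MOEHIGH (log2 fold change 4.83, SE 0.14, limma adjusted p = 2.20e-07). Like Kcnn4 it was low in all MOELOW libraries and abundant in all MOEHIGH libraries, and both encode channels opened by calcium. Lrrc8d, a volume-regulated anion channel subunit, rose from 5.17 ± 0.431 to 17.6 ± 1.79 FPKM. The cyclic AMP-regulated chloride channel gene Cftr was at 2.72 ± 0.872 and 5.15 ± 1.04 FPKM, and the chloride-proton exchanger gene Clcn3 at 11.6 ± 1.48 and 19.1 ± 4.81 FPKM (adjusted p = 0.013 and 0.015 from limma). With libraries scaled to equal totals neither passed (adjusted p = 0.060 and 0.089 from limma), and Clcn3 did not pass without passage 8 (adjusted p = 0.062). The subunit genes Lrrc8c (38.4 ± 1.498 to 15.2 ± 2.81 FPKM) and Lrrc8a (10.9 ± 0.732 to 6.22 ± 1.03 FPKM), the scramblase gene Ano6 (70.1 ± 6.83 to 31.9 ± 6.15 FPKM) and the exchanger gene Clcn4-2 (15.3 ± 0.485 to 9.54 ± 1.76 FPKM) fell. The count of higher anion channel genes was 4 without passage 8, 5 without passage 10 and 3 with equal totals.

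Of the genes that bring potassium into the cell and their regulators, 13 were tested, 1 was higher, 4 lower and 8 without a call. The sodium-potassium-chloride cotransporter gene Slc12a2 lay at 13.7, 13.5 and 14.4 FPKM in MOELOW and at 43.0, 44.9 and 66.9 FPKM in MOEHIGH, without overlap (log2 fold change 1.80, SE 0.17, limma adjusted p = 6.80e-05). Its activating kinase gene Stk39 fell from 57.3 ± 2.31 to 20.3 ± 1.76 FPKM. The sodium pump subunit gene Atp1b3 fell from 186.8 ± 10.8 to 114.2 ± 8.88 FPKM. In the list of calcium entry and release, 23 genes were tested, and 3 were higher, 14 lower and 6 without a call. The store-operated channel gene Orai2 fell from 6.84 ± 0.772 to 3.37 ± 0.825 FPKM and the calcium store sensor gene Stim2 from 14.8 ± 1.11 to 5.26 ± 0.219 FPKM. Pkd1 fell from 9.29 ± 0.942 to 3.32 ± 0.472 FPKM and the calcium channel subunit gene Cacna2d1 from 17.9 ± 4.26 to 6.06 ± 0.638 FPKM. Other cation channels (10 tested) were higher in 1, lower in 8 and not passing in 1, and the channel kinase gene Trpm7 was the one that rose, from 13.9 ± 0.434 to 24.6 ± 4.84 FPKM.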

How the data were processed

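RNA of 3 MOELOW and 3 MOEHIGH passages, depleted of ribosomal RNA, was made into strand-specific libraries and sequenced by the authors, who used TopHat2 2.0.8b for alignment (mm10) and Cufflinks and Cuffdiff 2.1.1 for expression over UCSC annotation. The deposited values are FPKM, 1 table per library, with 23141 entries under 22800 symbols. In all 6 tables the heading of the value column was not the name of that library (a different passage, or a word that names no passage), so each library's passage was taken from its record. For the 236 symbols with several entries the one with the highest mean was kept; no member was among them. The comparison was made by limma 3.58.1 under R 4.3.3 (trended variance, two-sided, Benjamini-Hochberg). It ran on log2(FPKM + 1) of the 11621 genes whose mean reached 0.5 FPKM. FPKM keep no absolute depth, so no counting interval was given. Positions are from GENCODE M21 (GRCm38, the same assembly as mm10), which held all 94 members. Promoters are from RefSeq, which held 69 of the members. Python 3.11.15, pandas 2.3.3 and matplotlib 3.10.9 did the rest, and the fit was tested on simulated data. Named genes were all tested members, untested members that reached 0.5 FPKM, and of other lists up to 4 called genes per direction with the largest change among those at 5 FPKM or more in a group, beside every called channel partner. Kcnn1, Kcnn2, Kcnn3, Kcnma1, Kcnj2, Kcnq1ot1 and other untested members below that level were named after their values were seen. Some genes that the rule names are not reported here. The members, lists and motifs were chosen with earlier results of these data known. Alternatives covered scaling, pseudocount, minimum level, shared symbols, threshold, a test against a 2-fold change, blocking by replicate number, and omission of single libraries.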

Additional observations from a re-analysis of the deposited data

How the results depend on the processing

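Under alternatives that kept a gene in the test, 128 values of potassium channel genes were recomputed. Of these, 120 kept their direction and side of the threshold. The 128 leave out the adjusted p of 0.01, the 2-fold test, and settings in which a gene fell below the minimum level. Summing the entries of shared symbols could not move the fold changes of members, as no member had several entries. A change of the minimum level alone and the replicate block also left each fold change as it was. Such settings could move only the p-value, so their values kept their direction by construction. The count of higher potassium channel genes (5) was 10 without a minimum level, 3 by a test against a 2-fold change, and 10 without a minimum at a pseudocount of 0.1, a setting chosen after seeing the data. The count of lower ones (3) was 16 without a minimum level, 17 without it at a pseudocount of 0.1, and 1 with quantile normalization, a minimum mean of 1 FPKM, an adjusted p of 0.01 or the 2-fold test. With each library left out these counts were 4 to 5 and 2 to 3. Higher genes of the ion transport lists (14) numbered 9 with equal totals or an adjusted p of 0.01 and 3 by the 2-fold test, and 10 to 15 with a library left out. Lower ones (38) numbered 3 by the 2-fold test and 33 to 40 with a library left out. The potassium channel genes at 1 FPKM or more in every MOELOW library (1) were 2 with equal totals and 1 to 3 with a library left out (3 without passage 10), and those in every MOEHIGH library (4) were 5 with quantile normalization and 4 under the other settings tried. Kcnk5 turned to 0.18 with quantile normalization, and the log2 fold change of Kcnab3 ran from -0.12 to 0.25 with a library left out, at -0.06 without passage 8 and -0.12 without passage 90. The cause of these changes was not tested, beyond the number of genes that a minimum level or a stricter threshold admits by construction. Median log2 fold changes of all tested genes were -0.05, -0.11 with equal totals, -0.05 with median ratios and 0.10 with quantile normalization. Replicate numbers shared by the groups did not pair the libraries (correlations of deviations -0.024, -0.147 and 0.123), and with the replicate block 5 potassium channel genes were higher and 3 lower, and 14 and 37 genes of the ion transport lists. The depth is unknown, so its limit on the 59 members that stayed below 0.1 FPKM was not tested.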
